A study of Mus musculus with 180 samples.

Results

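The EGR and IER immediate-early genes described here are *Egr1*, *Egr2*, *Egr3*, *Ier2*, *Ier3* and *Ier5*, together with *Nr4a1* and *Myc*. They were taken by gene symbol, and all 8 were found among the 45070 genes of the table. They were measured by polyA RNA-seq in bone marrow-derived macrophages (BMDMs), cultured from the marrow of wild type mice that the methods describe as male C57/BL6 animals aged 6 to 8 weeks. The cells were kept for 1 h with 1 of 58 clinical kinase inhibitors (CKIs) or with the solvent DMSO and then for 2 h with 10 ng/ml LPS, the Gram-negative bacterial component sensed by TLR4. Each CKI has 3 samples and DMSO has 6, which the labels divide into 2 sets of 3 without saying which CKIs were run with which set. Each CKI was used at 1 concentration, and these differ between CKIs, so the values of related CKIs stand side by side and no single CKI was tested against another. The class means, and the comparison of the MEK and ERK inhibitors with the other CKIs, take in CKIs at differing concentrations. Every sample received LPS, so the tests ask how a CKI moved a gene in LPS-treated cells and not how far LPS induced it.

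Immediate-early genes are transcribed within minutes of a stimulus, from promoters that need no newly made protein, and their transcripts are short-lived. In macrophages LPS starts such a wave through the MAP kinases ERK, p38 and JNK and through NF-κB. ERK phosphorylates ETS-type partners of the serum response factor (SRF) at CArG boxes, a well-known route to *Egr1*. *Egr1*, *Egr2* and *Egr3* encode zinc finger transcription factors that bind the same GC-rich motif and are restrained by the NAB corepressors. *Ier2* encodes a nuclear protein, *Ier3* a regulator of cell survival that is also an NF-κB target, and *Ier5* a nuclear protein that activates the heat shock factor HSF1. *Nr4a1* encodes the orphan nuclear receptor Nur77, and *Myc* the transcription factor of growth and ribosome production.

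RefSeq promoter windows of GRCm38.p6 were at hand for 4 of the 8 genes (*Egr2*, *Ier3*, *Ier5* and *Nr4a1*), with 5 start sites for *Egr2*. The windows of the 3 genes that rose with the PI3K and mTOR inhibitors as a class are shown, as the 150 bases directly before the start, 5′ to 3′ on the gene's strand. Capitals mark a CArG box, or the core of the cAMP response element (CRE), TGACG on either strand. The first is chr10:67537719-67537868 on the plus strand, the second chr15:101266696-101266845 on the plus strand, and the third chr1:155099637-155099786 on the minus strand.
Egr2: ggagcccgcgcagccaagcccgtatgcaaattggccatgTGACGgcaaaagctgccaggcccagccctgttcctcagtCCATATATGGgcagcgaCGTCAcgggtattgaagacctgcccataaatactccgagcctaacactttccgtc
Nr4a1: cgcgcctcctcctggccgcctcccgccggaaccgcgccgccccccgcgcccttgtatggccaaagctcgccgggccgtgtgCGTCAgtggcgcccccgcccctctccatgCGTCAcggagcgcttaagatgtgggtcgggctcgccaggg
Ier5: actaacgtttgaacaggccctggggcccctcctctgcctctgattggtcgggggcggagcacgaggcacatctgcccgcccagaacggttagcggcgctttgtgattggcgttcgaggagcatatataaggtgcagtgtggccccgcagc

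The *Egr2* window held 1 CArG box, from 72 to 63 bases before the start, and 2 CRE cores on either side of it. The *Nr4a1* window held 4 CRE cores within 250 bases, of which 2 are in the stretch printed, and no CArG box. No CArG box, CRE core or ETS core (GGAA on either strand) was found in the 250 bases before *Ier5*. Over the 250 bases before all 32851 RefSeq starts, 1.47% held a CArG box, 17.8% a CRE core and 93.4% an ETS core. A window at another *Egr2* start held the CArG box CCTTTTTTGG at the same distance, while the one at the most upstream *Egr2* start held none and held 2 overlapping κB sites, from 117 to 107 bases before it. The window of *Ier3* held a κB site from 92 to 83 bases before the start, a motif present in 7.25% of all windows. These letters describe the windows and say nothing of which factor bound there.

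The column totals of the normalized values lay between 9481416 and 11094387 in the 6 DMSO samples and between 9477340 and 12273349 in the 174 CKI samples. All 8 macrophage markers examined, such as *Csf1r* and *Adgre1*, were at a mean of at least 10, and their summed value was 85663 to 187772 with DMSO and 74177 to 213683 with CKIs. The T cell markers *Cd3e*, *Cd3d*, *Cd3g* and *Cd8a* summed to at most 6 in any sample. Sums of the neutrophil markers reached 810 with DMSO and 1855 with CKIs, where *Ly6g* was at most 5, and those of the fibroblast markers 147 and 222. The B cell markers summed to at most 46 and the dendritic cell markers to at most 161, and of the mast cell and megakaryocyte markers *Pf4* alone was high (2520 to 9358), with *Cpa3* and *Fcer1a* at 2 or less. The 8 LPS response genes, such as *Tnf* and *Il1b*, summed to 119044 to 190021 with DMSO and 83349 to 235040 with CKIs. Of these 8, 3 fell and 0 rose with Midostaurin (1.93% of all genes fell) and with Pimasertib (5.68%). With Omipalisib 4 rose and 0 fell (17.5% of all genes rose), and with Tofacitinib 3 rose and 0 fell (9.02%). Their part in the values of the genes described here was not tested. Mitochondrial transcripts took 0.759% to 1.94% of the DMSO totals and 0.525% to 4.47% of the CKI totals.

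*Ier3* was the most abundant of the 8 genes and *Egr3* the least. Per kilobase of transcript, the mean normalized value with DMSO was 1143 ± 347 for *Ier3*, 143 ± 29.8 for *Myc*, 78.3 ± 9.49 for *Ier2*, 48.6 ± 12.7 for *Egr2*, 27.7 ± 14.8 for *Egr1*, 16.9 ± 5.49 for *Nr4a1*, 11.4 ± 1.63 for *Ier5* and 7.22 ± 3.63 for *Egr3* (SD, n = 6). The spread between samples of a condition also differed by gene. On the scale of log2(normalized value + 1), which understates the changes of low genes, the SD within conditions was 0.74 for *Egr1*, 0.62 for *Egr3*, 0.47 for *Egr2* and 0.46 for *Nr4a1*, against a median of 0.31 over all genes tested. It was 0.33 for *Ier2*, 0.32 for *Myc*, 0.30 for *Ier5* and 0.28 for *Ier3*. The standard error of a comparison of a CKI with DMSO followed from this and ran from 0.20 for *Ier3* to 0.51 for *Egr1*, so that changes of *Egr1* had to be larger than those of *Ier3* to be detectable.

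A part of that spread lay between replicate numbers. Among the 60 sets of 3 samples numbered 1 to 3, the sample numbered 3 had the lowest *Egr1* value in 50 and the lowest *Egr3* value in 40. The replicate number accounted for 50.03% of the variance of *Egr1* within sets, for 40.9% of that of *Egr3*, 28.3% for *Ier3*, 16.7% for *Ier2*, 13.8% for *Egr2*, 8.53% for *Ier5*, 2.40% for *Nr4a1* and 2.34% for *Myc*. The labels and methods describe the numbers as biological replicates and name no shared animal or day.

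**Figure D1:**
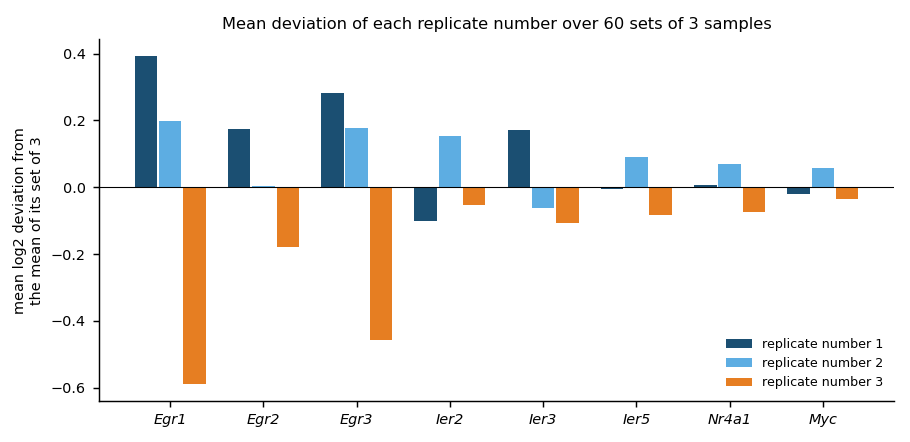
Mean deviation of the samples numbered 1, 2 and 3 from the mean of their set (log2 scale, vertical axis) for each gene, over 60 sets of 3 samples. The bars of number 3 lie lowest for *Egr1* (−0.59) and *Egr3* (−0.46), while those of *Nr4a1* and *Myc* lie between −0.07 and 0.07.

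All 8 genes varied over the 59 conditions (limma, moderated F-test, adjusted p under 0.05 for each). Of the 12714 genes tested, 48.6% passed the same test, so passing it does not set these genes apart. By this test *Myc* ranked 530, *Ier5* 570, *Nr4a1* 920, *Egr2* 926 and *Egr1* 929, with *Ier3* at 2027, *Ier2* at 2239 and *Egr3* at 5286 (adjusted p = 0.0250). Without the first or the third replicate of every condition 5 genes passed: *Egr3* and *Ier2* were lost in both cases, *Egr2* in the first (adjusted p = 0.119) and *Ier3* in the second. Without the second, 6 passed, with *Egr3* and *Ier3* lost. In order of their means, neighbouring conditions almost never separated. Of the 58 pairs of neighbours, all 58 had overlapping samples for *Egr2*, *Egr3*, *Ier2*, *Ier3*, *Ier5* and *Nr4a1*, and 57 for *Egr1* and *Myc*. The exceptions were Pimasertib, which lay apart below AZD2014 for *Egr1*, and Midostaurin, which lay apart above Poziotinib for *Myc*.

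Of the 464 pairs of a gene and a CKI, 31 passed an adjusted p under 0.05, and 27 of them were higher than with DMSO. This is 6.68% of the pairs, against a background of 4.18% of all gene-CKI pairs tested (2.52% higher and 1.65% lower). *Ier5* rose with 9 CKIs, *Egr2* with 6, *Nr4a1* with 4, *Myc* with 3, *Egr3* and *Ier3* with 2 each and *Egr1* with 1. The 4 falls were those of *Egr1*, *Egr3* and *Ier2* with Pimasertib and of *Egr1* with AZD2014. In 24 of the 31 pairs all 3 CKI samples lay beyond the range of the 6 DMSO samples. The pairs were called on the same values, so this adds no support to the calls. Over all 58 CKIs, called or not, *Myc* lay wholly above that range with 13, *Ier5* with 11, and *Egr2* and *Nr4a1* with 8 each. *Ier2* did so with 7, *Egr1* and *Ier3* with 1 each and *Egr3* with 0. *Egr1* lay wholly below with 2 and *Ier2* with 1. Over all gene-CKI pairs tested, the CKI samples lay wholly above the DMSO samples in 4.52% and wholly below in 2.02%.

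By CKI, Pimasertib changed 4 of the 8 genes (background 21.7% of all genes), BGT226 4 (30.4%), AZD2014 4 (19.6%), PF04691502 3 (13.1%), Midostaurin 3 (4.56%) and Tofacitinib 3 (9.88%). Apitolisib changed 2 (15.9%), Filgotinib 2 (20.7%) and Lenvatinib 2 (12.2%), while Lapatinib (23.3%), Afatinib (21.9%), Omipalisib (25.7%) and Mubritinib (1.84%) changed 1 each. The other 45 CKIs changed 0 of the 8 genes. For 17 of these no gene of the table passed the threshold, and for the other 28 some did.

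**Figure D2:**
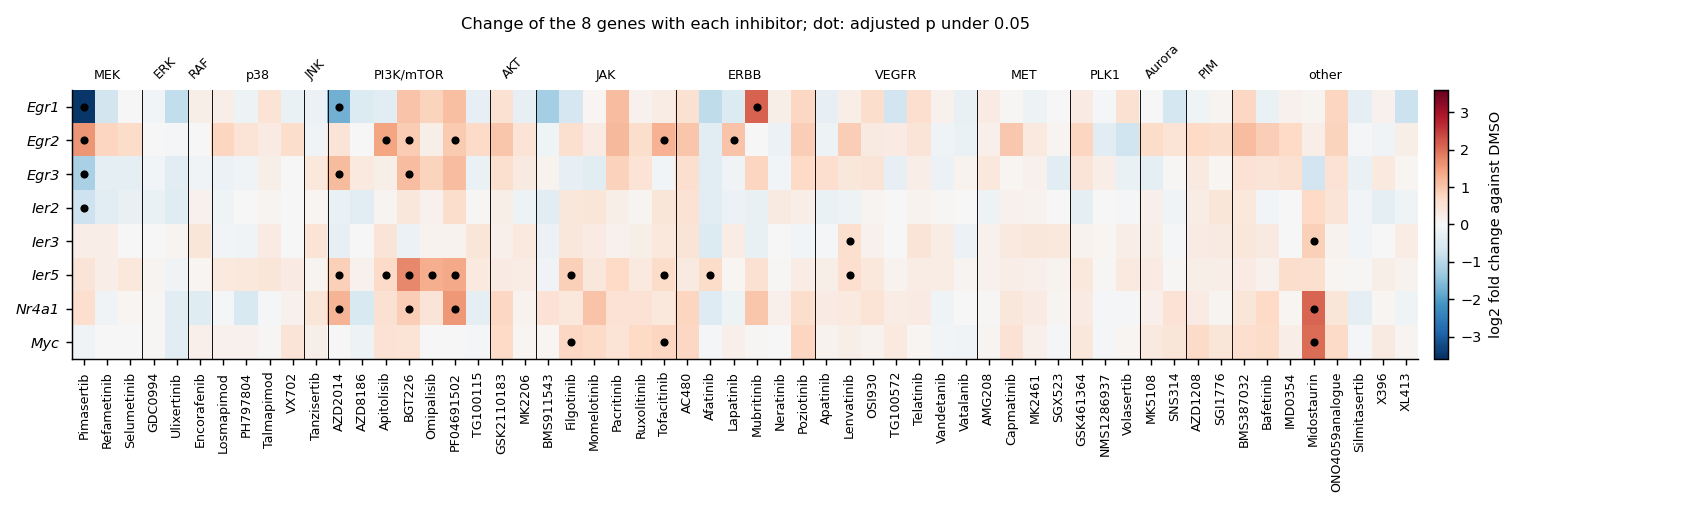
Log2 fold change of each gene (rows) with each of the 58 CKIs (columns, grouped by designated target), with red for higher and blue for lower than DMSO and a dot where the adjusted p was under 0.05. The deepest blue is *Egr1* with Pimasertib (−3.50), and the *Ier5* row is red in most columns.

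*Egr1* is found on the plus strand of chromosome 18 (mm10, 34861207 to 34864956). Its normalized values with DMSO ran from 31 to 148 with a median of 84.5. With Pimasertib, an inhibitor of MEK, the kinase that activates ERK, they were 6, 6 and 5. These are the lowest values of *Egr1* in the series, and all lay below the DMSO range. The log2 fold change was −3.50 (standard error 0.51, adjusted p = 2.31e-07), and within replicate numbers 1, 2 and 3 it was −4.21, −3.53 and −2.77. With Pimasertib 2 of the 5 neutrophil markers tested rose, *S100a9* (1.97) and *S100a8* (1.66), where 16% of all genes rose. *Ly6g* was at most 5 in any sample, and the part of these markers in the *Egr1* values was not tested. This call of *Egr1* was kept under each of the 23 alternatives run for it, with adjusted p up to 0.00643.

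The other inhibitors of the ERK cascade left *Egr1* inside or near the DMSO range. Its values were 55, 63 and 29 with the MEK inhibitor Refametinib and 81, 88 and 60 with the MEK inhibitor Selumetinib. With the ERK inhibitors they were 69, 54 and 90 for GDC0994 and 94, 32 and 21 for Ulixertinib. With Refametinib and Selumetinib 0 genes of the whole table passed, with GDC0994 0.00787% and with Ulixertinib 0.0157%. None of these 4 differed from DMSO beyond the spread of the samples, with log2 fold changes of −0.66 (95% interval −1.68 to 0.35), 0.02 (−0.99 to 1.03), −0.10 (−1.11 to 0.91) and −0.88 (−1.89 to 0.13). These intervals include both no change and changes of more than 0.9 on the log2 scale. Encorafenib, a RAF inhibitor, gave 87, 135 and 55, and Tanzisertib, a JNK inhibitor, 94, 36 and 76.

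AZD2014, an mTOR inhibitor, lowered *Egr1* to 30, 20 and 17, all below the DMSO samples (log2 fold change −1.73, standard error 0.51, adjusted p = 0.00804). Mubritinib, an ERBB inhibitor, raised it to between 195 and 453 with a mean of 348 (n = 3), all above them (2.12, standard error 0.51, adjusted p = 0.00818). The calls with AZD2014 and Mubritinib were lost without the second CKI replicates (adjusted p = 0.0819 and 0.302), the former also against DMSO set 1 alone (0.118) and the latter against DMSO set 2 alone (0.159) or without the first CKI replicates (0.188). BMS911543, a JAK inhibitor, gave 29, 64 and 16. Its log2 fold change of −1.23 had an adjusted p of 0.139, or 0.0121 with replicate number blocked.

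*Egr2*, on chromosome 10 from 67535499 to 67542188, moved the other way from *Egr1* with Pimasertib. Its DMSO values ran from 104 to 233 with a median of 165. Pimasertib gave 816, 233 and 610, so that 2 samples lay far above the DMSO range and the second at its top. The log2 fold change was 1.59 (standard error 0.33, adjusted p = 5.01e-04). Its values were 324, 220 and 294 with Refametinib and 304, 194 and 286 with Selumetinib. For both the log2 fold change lay above 0, at 0.77 (95% interval 0.11 to 1.42, adjusted p = 0.143) and 0.66 (0.01 to 1.31, adjusted p = 0.778). The ERK inhibitors gave 135, 157 and 200 (GDC0994) and 174, 264 and 84 (Ulixertinib), within or across the DMSO range.

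The other rises of *Egr2* came with CKIs of 3 designated targets. Among the PI3K and mTOR inhibitors its values were 536, 309 and 494 with Apitolisib, which the study chose for JAK1, 358, 287 and 288 with PF04691502 and 403, 397 and 175 with BGT226. Tofacitinib, a JAK inhibitor, gave 430, 501 and 270, and Lapatinib, an ERBB inhibitor, gave 390, 285 and 330. With Lapatinib 3 of the 5 neutrophil markers tested rose as well, *S100a9* (1.77), *S100a8* (1.58) and *Cxcr2* (1.01), where 18.1% of all genes rose. *Ly6g* was at most 5 in any sample, and the part of these markers in the *Egr2* values was not tested. Only with BGT226 did a sample fall inside the DMSO range. Of all genes tested, 11.9% lay wholly above that range with Apitolisib, 9.05% with PF04691502, 12.5% with Tofacitinib and 16.6% with Lapatinib. The log2 fold changes were 1.42 with Apitolisib (adjusted p = 0.00927), 1.25 with Tofacitinib (0.0158), 1.03 with Lapatinib (0.0188), 0.93 with PF04691502 (0.0457) and 0.90 with BGT226 (0.0266), each with a standard error of 0.33.

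*Egr2* was 510, 201 and 413 with BMS387032 and 225, 371 and 321 with Lenvatinib. Their log2 fold changes of 1.10 and 0.88 had adjusted p = 0.119 and 0.0574, and 0.0490 and 0.0279 with replicate number blocked. Mitochondrial transcripts were more frequent with most of these CKIs than with DMSO, at 3.24% to 4.29% of the total with Pimasertib, 1.49% to 4.04% with Apitolisib, 1.35% to 4.01% with Tofacitinib, 1.92% to 3.71% with Lapatinib and 1.71% to 4.45% with PF04691502. With the replicate block and this share added to the fit, these 5 calls were lost (adjusted p 0.131 to 0.334, with the log2 fold change of Pimasertib at 0.78), while that of BGT226, with a share of 0.884% to 2.11%, was kept (0.0113). Without the second replicate of DMSO set 2, the lowest DMSO sample, 4 of the 6 calls were lost (adjusted p 0.0601 to 0.135), those with Pimasertib and Apitolisib excepted. PF04691502 was also lost without the second or the third replicate of DMSO set 1 (0.0639 and 0.0672). Without the first, the second or the third CKI replicates, 5, 2 and 3 of the 6 calls were lost (adjusted p 0.0523 to 0.300), and that with Pimasertib was kept. Median-of-ratios scaling, which shifted the median of all genes with BGT226 by −0.20, ended the calls with BGT226 (0.0819) and PF04691502 (0.0662).

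*Egr3*, on chromosome 14 from 70077317 to 70082613, had the lowest values of the EGR genes. Its DMSO values ran from 17 to 53 with a median of 23.5. Pimasertib gave 24, 8 and 8, the lowest mean of all conditions, with 2 samples below the DMSO range. AZD2014 gave 71, 52 and 63 and BGT226 75, 82 and 34, each with 2 samples above it and 1 inside. So with AZD2014 *Egr1* fell while *Egr3* rose, and with Pimasertib *Egr1* and *Egr3* fell while *Egr2* rose. The log2 fold changes of *Egr3* were −1.15 with Pimasertib, 1.15 with AZD2014 and 1.10 with BGT226 (standard error 0.43), with adjusted p (limma) of 0.0447, 0.0476 and 0.0427. All 3 calls were lost without the second replicate of DMSO set 1 (adjusted p 0.0539 to 0.0695) or of DMSO set 2 (0.0660 to 0.0912). The rises were also lost without the third replicate of either DMSO set (0.0877 to 0.0990), and the fall without the first of either (0.0810 and 0.0868). Leaving out the first, the second or the third CKI replicates cost 2, 3 and 2 of the calls (0.0593 to 0.243), and median-of-ratios scaling that with BGT226 (0.105).

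**Figure D3:**
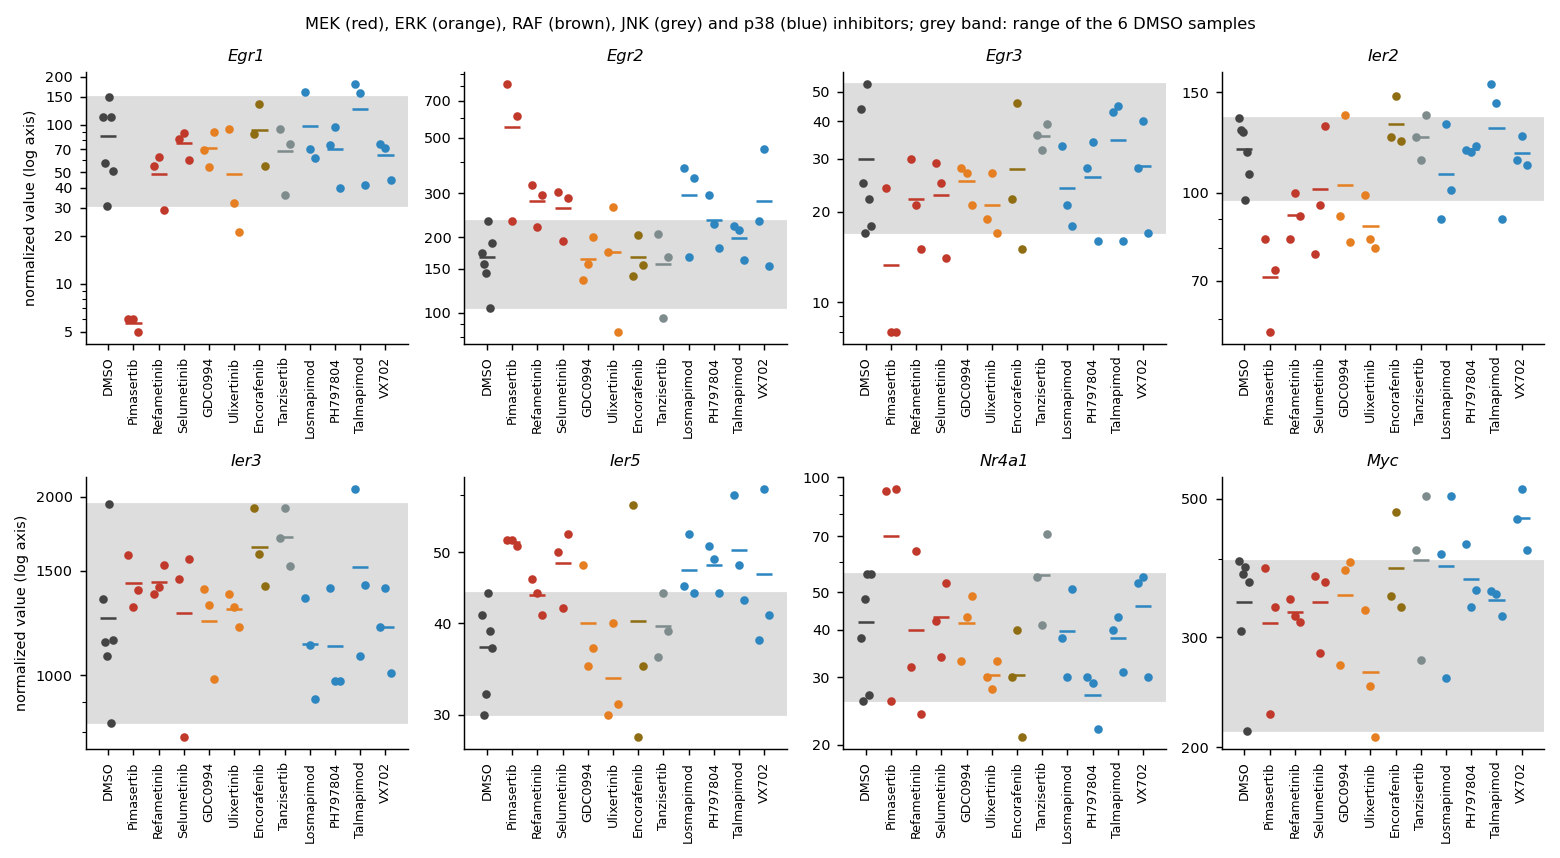
Normalized values (log axis) of the 8 genes in every sample with DMSO and with the MEK, ERK, RAF, JNK and p38 inhibitors, with points for samples, lines for means and a grey band for the range of the 6 DMSO samples. Pimasertib lies below the band for *Egr1* (5 to 6) and *Ier2* (57 to 83), and its *Egr2* samples reach 816.

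*Ier2*, on chromosome 8 from 84661331 to 84662852, varied little with DMSO, where its values ran from 97 to 135 with a median of 123. With Pimasertib they were 83, 57 and 73, all below the DMSO range. Its log2 fold change was −0.75 (standard error 0.23, adjusted p = 0.0176). All 5 MEK and ERK inhibitors had a mean under that of DMSO, with 83, 100 and 91 for Refametinib, 78, 95 and 131 for Selumetinib, 91, 137 and 82 for GDC0994 and 99, 83 and 80 for Ulixertinib. The log2 fold changes of these 4 lay between −0.44 and −0.23 and did not pass the test. With Midostaurin, a multikinase inhibitor, *Ier2* was at its highest mean, with 193, 217 and 176, all above the DMSO samples. The log2 fold change of 0.71 had an adjusted p of 0.0582, or 0.0223 with replicate number blocked. The fall with Pimasertib was lost without the third CKI replicates (adjusted p = 0.0797) and with the mitochondrial covariate and the block (0.173).

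*Ier3*, on chromosome 17 from 35821713 to 35822911, ranged from 829 to 1941 with DMSO (median 1142). Midostaurin raised it to 1983, 2072 and 2604, all above that range (log2 fold change 0.87, standard error 0.20, adjusted p = 0.00129). With Lenvatinib, a VEGFR inhibitor, it was 1783, 2013 and 1627, of which 1 sample exceeded the DMSO range (0.58, standard error 0.20, adjusted p = 0.0409). Outside Midostaurin, the means of 57 CKIs lay inside the DMSO range. The call with Lenvatinib was lost without the second or the third replicate of either DMSO set (adjusted p 0.0592 to 0.131) and without any 1 of the 3 CKI replicates (0.103 to 0.156), and that with Midostaurin without the third CKI replicates (0.0628). With the mitochondrial share (2.07% to 3.70% with Lenvatinib) and the block in the fit, the adjusted p with Lenvatinib was 0.210. With Apitolisib the log2 fold change of 0.47 had an adjusted p of 0.0769, or 0.0263 with replicate number blocked. Afatinib, an ERBB inhibitor, gave the lowest mean, 858, with 1 sample at 699. The log2 fold change with Afatinib was −0.50 and did not pass in the main fit. With median-of-ratios scaling added, it was −0.55 with an adjusted p of 0.0286, while that with Lenvatinib was 0.40 and no longer passed (0.152).

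*Ier5*, on chromosome 1 from 155096367 to 155099636 on the minus strand, rose with more CKIs than any of the other 7 genes. Its DMSO values ran only from 30 to 44 with a median of 38. The DMSO mean ranked 57 of the 59 conditions, and the means of 35 CKIs lay above the highest DMSO sample, so most CKIs stood above a low and narrow reference. BGT226 gave 132, 150 and 100, PF04691502 131, 105 and 65, and Omipalisib 93, 124 and 69. AZD2014 gave 68, 60 and 75 and Apitolisib 66, 49 and 65. These are 5 of the 7 PI3K and mTOR inhibitors, and in all 5 every sample was above the DMSO range. Of all genes tested, 19.5% lay wholly above it with BGT226, 9.05% with PF04691502, 14.8% with Omipalisib, 6.72% with AZD2014 and 11.9% with Apitolisib. The log2 fold changes were 1.74 (adjusted p = 8.47e-12), 1.36 (4.93e-07), 1.31 (2.68e-07), 0.85 (0.00110) and 0.68 (0.0250), with a standard error of 0.21. AZD8186 and TG100115, also PI3K inhibitors, gave 39, 56 and 32, and 42, 57 and 43, and overlapped the DMSO range.

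The remaining rises of *Ier5* were smaller. Filgotinib, a JAK inhibitor, gave 53, 78 and 76 (log2 fold change 0.87, adjusted p = 0.00111), and Tofacitinib 58, 80 and 44 (0.66, adjusted p = 0.0355). Afatinib gave 47, 61 and 69 (0.65, adjusted p = 0.0174), and Lenvatinib 50, 64 and 58 (0.62, adjusted p = 0.0429). Among these 4, a sample touched the DMSO range with Tofacitinib alone. Of all genes tested, 7.05% lay wholly above that range with Filgotinib, 8.57% with Afatinib and 12% with Lenvatinib. With Pimasertib the values were 52, 52 and 51, also above the DMSO samples, with a log2 fold change of 0.48 that did not pass (adjusted p = 0.0855). The calls with BGT226, PF04691502, Omipalisib, AZD2014 and Filgotinib were kept under all 22 alternatives run for them. Those with Apitolisib, Lenvatinib and Tofacitinib were lost without the second replicate of DMSO set 2 (adjusted p 0.0725 to 0.0924), the latter pair also without the second or the third of set 1 (0.0646 to 0.0808) and Lenvatinib without the third of set 2 (0.0574). The call with Afatinib was lost without the second or the third CKI replicates (0.0781 and 0.0992). Without 1 of the CKI replicates the calls with Apitolisib, Lenvatinib and Tofacitinib were lost in 2, 3 and 2 of 3 cases (0.0990 to 0.253), and with the mitochondrial share and the block in the fit all 3 were lost (0.189 to 0.274). Median-of-ratios scaling ended those with Lenvatinib (0.127) and Tofacitinib (0.103).

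*Nr4a1*, on chromosome 15 from 101266846 to 101274795, had DMSO values of 26 to 56 with a median of 43. Midostaurin raised it most, to 172, 231 and 132. The log2 fold change was 2.09 (standard error 0.32, adjusted p = 7.73e-07). Of the PI3K and mTOR inhibitors, PF04691502 gave 103, 141 and 118, AZD2014 84, 131 and 78, and BGT226 66, 87 and 74. All 12 of these samples lay above the DMSO range. Of all genes tested, 5.65% lay wholly above it with Midostaurin, 9.05% with PF04691502, 6.72% with AZD2014 and 19.5% with BGT226. The log2 fold changes of *Nr4a1* were 1.56 with PF04691502 (adjusted p = 2.95e-04), 1.23 with AZD2014 (0.00250) and 0.90 with BGT226 (0.0254). Apitolisib (108, 45 and 43), Omipalisib (51, 86 and 38), TG100115 (36, 27 and 30) and AZD8186 (13, 35 and 43) overlapped the DMSO range and did not pass. The calls with Midostaurin and PF04691502 were kept under all 23 alternatives, while that with BGT226 was lost without the second replicate of either DMSO set (adjusted p = 0.0664 and 0.0657) or any 1 of the 3 CKI replicates (0.0564 to 0.0764). Median-of-ratios scaling also ended this call (0.0945). The call with AZD2014 was lost without the second replicate of every condition (0.223).

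*Myc*, on chromosome 15 from 61985341 to 61990361, had DMSO values of 212 to 398 with a median of 373.5. With Midostaurin it reached 1382, 1492 and 1226, the highest values in the series. The log2 fold change was 2.02 (standard error 0.22, adjusted p = 5.98e-12), and it was 1.81, 2.54 and 1.71 within replicate numbers. No other condition came near this level, the next mean being 578 with Poziotinib. Filgotinib gave 537, 562 and 588 and Tofacitinib 593, 607 and 525, also wholly above the DMSO range (0.75 and 0.78, adjusted p = 0.0102 and 0.0254). Of all genes tested, 7.05% lay wholly above it with Filgotinib and 12.5% with Tofacitinib. Both of these *Myc* calls were lost without the second replicate of DMSO set 2, the lowest DMSO sample (adjusted p = 0.0533 and 0.104). Filgotinib was also lost without the third CKI replicates (0.0712), and Tofacitinib without the first or the second (0.126 and 0.131). With the mitochondrial share and the block in the fit (0.0775) or with median-of-ratios scaling (0.0859) Tofacitinib was lost too. Pimasertib (387, 226 and 336), Refametinib (346, 325 and 318) and Selumetinib (376, 283 and 368) left *Myc* in the DMSO range, with log2 fold changes between −0.12 and 0.02.

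**Figure D4:**
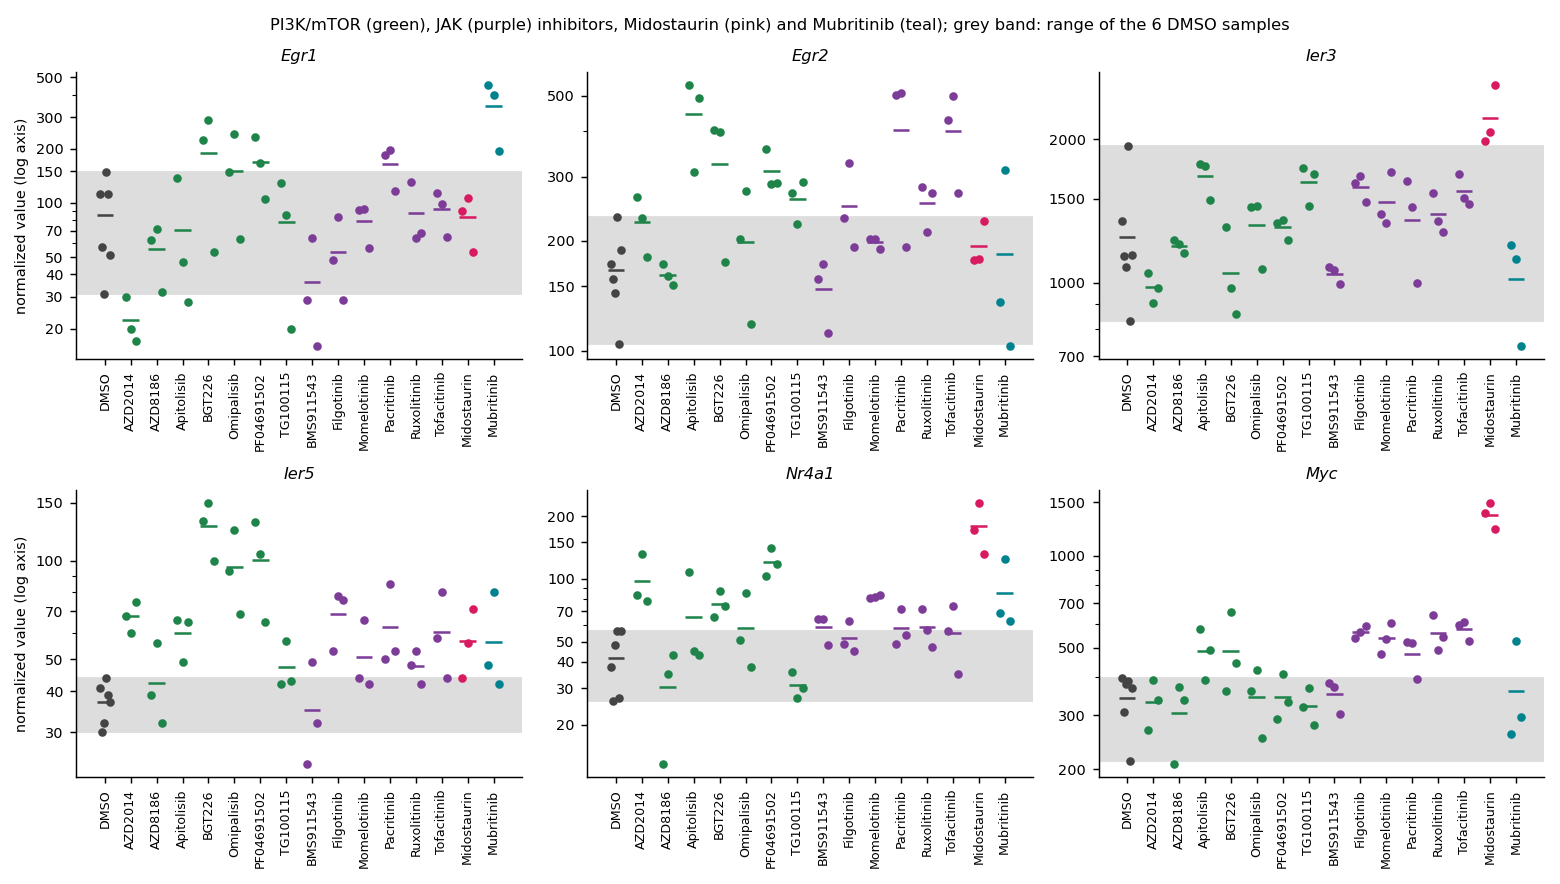
Normalized values (log axis) of 6 of the genes in every sample with DMSO, the 7 PI3K and mTOR inhibitors, the 6 JAK inhibitors, Midostaurin and Mubritinib, with points for samples, lines for means and a grey band for the range of the 6 DMSO samples. Midostaurin stands alone for *Myc* (1226 to 1492), and *Ier5* is highest with BGT226, PF04691502 and Omipalisib (65 to 150).

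The p38 inhibitors changed 0 of the 8 genes, singly or as a class (background 1.59% of genes for the class). For the single CKIs the background was 0.0865% (Losmapimod), 1.98% (PH797804), 0% (Talmapimod) and 0.189% (VX702). Without adjustment, Losmapimod, Talmapimod and VX702 each had 1 gene and PH797804 0 genes with p under 0.05, and the class had 2. With Losmapimod *Egr2* was 377, 167 and 345, and *Egr1* was 160, 70 and 62. VX702 gave *Myc* values of 465, 518 and 414, all above the DMSO range, with a log2 fold change of 0.47 (adjusted p = 0.562). Over the class the log2 fold changes ran from −0.13 for *Nr4a1* to 0.55 for *Egr2*. Encorafenib (background 0%) and Tanzisertib (0.0708%) also changed 0 of the 8 genes, with 1 gene each at an unadjusted p under 0.05, and the highest of their log2 fold changes was that of *Ier3* (0.44, and 0.50 with values of 1702, 1912 and 1525).

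Taken as a class, the 3 MEK inhibitors lowered *Egr1* (log2 fold change −1.38, standard error 0.38, adjusted p = 0.0152) and raised *Egr2* (1.00, standard error 0.25, adjusted p = 0.00798), against a background of 15.7% of genes. For *Ier2* the value was −0.46 with an adjusted p of 0.0548, or 0.0235 with replicate number blocked. Of the 3, Pimasertib was the one with which *Egr1* and *Egr2* passed singly, and the log2 fold changes of *Egr1* were −3.50 with Pimasertib, −0.66 with Refametinib and 0.02 with Selumetinib. The neutrophil markers *S100a9* (1.39) and *S100a8* (1.12) and the dendritic cell marker *Xcr1* (0.54) also rose with the class, and their part in its values was not tested. The 2 ERK inhibitors changed 0 of the 8 genes (background 0.0315%), and 0 had an unadjusted p under 0.05. The 7 PI3K and mTOR inhibitors on average raised *Ier5* (0.92, standard error 0.14, adjusted p = 9.30e-08), *Egr2* (0.66, adjusted p = 0.0153) and *Nr4a1* (0.54, adjusted p = 0.0421), against a background of 30.4%. The mean with AZD8186 lay below that of DMSO for *Egr2* (161 against 167). For *Nr4a1* the means with AZD8186 and TG100115 did so (30.3 and 31 against 41.8), and the other means of the class lay above DMSO. With this class 1 of the 5 neutrophil markers tested fell, *Elane* (−0.96), and 0 rose. The median of the 5 was 0.21, against 0.10 for all genes, of which 21.4% rose and 9.02% fell. Of the 8 macrophage markers 3 rose and 1 fell, and of the 2 mast cell and megakaryocyte markers tested *Kit* rose (0.64). The part of these markers in the class values was not tested. *Elane* fell singly with Omipalisib (−3.69), BGT226 (−1.86) and PF04691502 (−1.57), *Mpo* with Omipalisib (−2.18) and BGT226 (−2.12), and *Kit* rose with BGT226 (1.77) and Omipalisib (1.23). The 6 JAK inhibitors on average raised *Myc* (0.58, adjusted p = 0.00742), *Ier5* (0.48, adjusted p = 0.0193) and *Egr2* (0.63, adjusted p = 0.0464), against a background of 11.1%. Singly, *Myc* and *Ier5* passed with Filgotinib and Tofacitinib alone and *Egr2* with Tofacitinib alone. With BMS911543 the means of *Ier5* (35 against 37.2) and *Egr2* (147 against 167) lay below those of DMSO, and the other means of the class lay above. Without the second replicate of DMSO set 2, the only one of these 8 class results that passed was *Ier5* with the PI3K and mTOR inhibitors. *Egr2* and *Ier5* with the JAK inhibitors and *Nr4a1* with the PI3K and mTOR inhibitors were also lost without other single DMSO samples, so that 5 to 12 class results passed when any of the other 5 was left out.

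The question whether MEK and ERK inhibition moved these genes differently from other kinase inhibition was put to the 5 MEK and ERK inhibitors together, against DMSO and against the other 53 CKIs. Against DMSO 0 of the 8 genes passed (limma, background 0.385% of genes), and 3 had an unadjusted p under 0.05, namely *Egr1* (log2 fold change −1.02, adjusted p = 0.120), *Egr2* (0.59, adjusted p = 0.145) and *Ier2* (−0.41, adjusted p = 0.153). With replicate number blocked, *Egr1* passed (0.0124), where 4 of the 5 CKIs were taken as paired, and without the third replicates it passed too (0.0308). Against the other CKIs 4 genes were lower: *Egr1* (−1.10, standard error 0.20, adjusted p = 3.43e-05), *Egr3* (−0.67, standard error 0.17, adjusted p = 0.00541), *Ier2* (−0.47, standard error 0.09, adjusted p = 1.14e-04) and *Myc* (−0.40, standard error 0.09, adjusted p = 0.0011), against a background of 5.31%. Without Pimasertib the values were −0.48 for *Egr1* (adjusted p = 0.220) and −0.50 for *Egr3* (0.104), which no longer passed (background 4.62%), and −0.39 for *Ier2* (0.00886) and −0.39 for *Myc* (0.0064), which did. Without the second CKI replicates, *Egr3* (adjusted p = 0.211) and *Myc* (0.102) no longer passed. Both comparisons with the other CKIs rest on conditions in which several of these genes stood above DMSO, as *Myc* did for 46 of the 58 CKIs. Their p-values take in the spread between samples and not that between CKIs, which were used at differing concentrations. They therefore hold for these CKIs and do not extend to MEK and ERK inhibition in general.

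**Figure D5:**
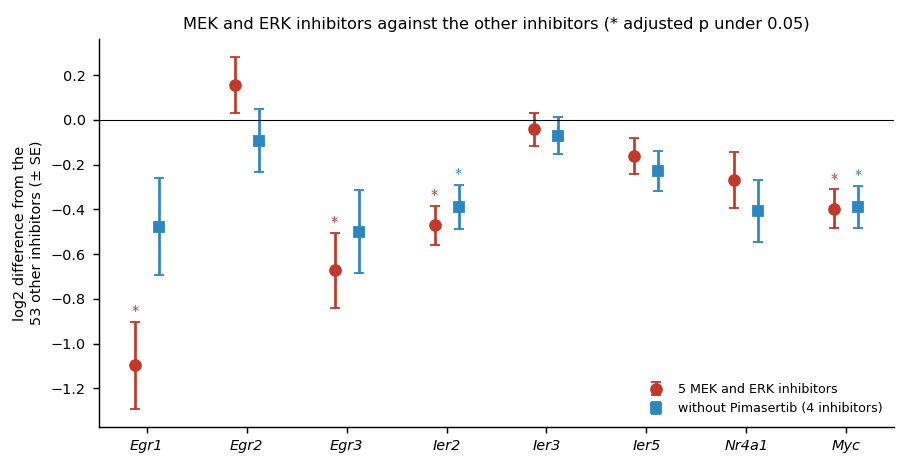
Difference on the log2 scale between the MEK and ERK inhibitors and the other 53 CKIs for each gene (bars are standard errors from the fit, stars mark an adjusted p under 0.05), with all 5 inhibitors (red circles) and without Pimasertib (blue squares). *Egr1* moves from −1.10 to −0.48 when Pimasertib is left out, while *Ier2* and *Myc* stay at −0.39 or lower.

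Other genes of these pathways were counted from lists. Of 33 further immediate-early genes, such as the FOS and JUN genes, 26 were tested. With Pimasertib 1 of them rose and 5 fell (median log2 fold change 0.03, against 0.12 for all genes, of which 16% rose and 5.68% fell), among them *Junb* (−0.86), *Mafk* (−0.71) and *Csrnp1* (−0.70), while the kinase gene *Sgk1* rose (1.12). With BGT226 14 rose and 2 fell, led by *Gadd45b* (2.90), *Fosb* (2.64), *Klf4* (2.04) and *Nr4a2* (2.03), with a median of 0.84 against 0.21 for all genes, of which 24.1% rose and 6.32% fell. The PI3K and mTOR inhibitors as a class raised 12 and lowered 3, where 21.4% of all genes rose and 9.02% fell, and *Fosb* (1.95) and *Dusp1* (−1.20), a phosphatase gene, were among those with the largest changes. With Midostaurin, where 2.63% of all genes rose and 1.93% fell, 2 rose and 7 fell, so that *Sgk1* (−2.28), *Atf3* (−1.81) and *Mafk* (−1.63) fell where *Myc* and *Nr4a1* rose, and *Fosb* rose with them (1.56).

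Of 14 feedback and output genes of ERK signalling, 10 were tested. Pimasertib lowered 3 of them, namely *Phlda1* (−2.05), the ERK phosphatase gene *Dusp6* (−1.18) and *Etv5* (−0.91), and raised 0. Of all genes 16% rose and 5.68% fell with this CKI. The MEK and ERK inhibitors together had lower *Dusp6* (−0.93), *Phlda1* (−0.63) and *Fosl1* (−0.54) than the other CKIs, where 1.87% of all genes were lower. The PI3K and mTOR inhibitors raised *Dusp6* (1.04), *Spry2* (0.87) and *Dusp4* (0.74) and lowered *Phlda1* (−0.96). These 3 and 1 of the 10 lie near the shares of all genes, of which 21.4% rose and 9.02% fell. With Midostaurin *Phlda1* rose (2.096), where 2.63% of all genes rose.

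Of the 8 cofactors of SRF and EGR tested, Pimasertib lowered *Nab2* (−2.36), the EGR corepressor that EGR factors themselves induce, and *Elk1* (−0.85), an ETS partner of SRF, and raised *Mrtfa* (0.68). Of all genes 16% rose and 5.68% fell with Pimasertib. *Nab2* was also lower with the MEK and ERK inhibitors than with the other CKIs (−0.70), where 1.87% of all genes were lower. BGT226 raised *Mrtfb* (1.16) and *Mrtfa* (1.09) and lowered *Nab2* (−0.77). The 2 rises among 8 genes lie near the 24.1% of all genes that rose, and 6.32% of all genes fell. With Midostaurin none of the 8 passed.

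Beside the rise of *Myc* with Midostaurin, 2 of the 20 MYC target genes tested rose and 0 fell, *Odc1* (1.48), the first enzyme of polyamine synthesis, and *Nop16* (0.74), with a median of 0.22 against 0.11 for all genes, of which 2.63% rose and 1.93% fell. In the MYC network, where 11 genes were tested, the MYC antagonist *Mxd1* (−0.89) and the MYC partner *Max* (−0.59) fell and *Mxi1* (0.84) rose. With BGT226, where *Myc* did not pass, *Mnt* (2.43) and *Mga* (1.59), both of them MAX partners, rose, and 1 MYC target rose and 3 fell. Of all genes 24.1% rose and 6.32% fell with BGT226. The MEK and ERK inhibitors had higher *Mxd1* than the other CKIs (0.58), where 3.44% of all genes were higher.

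Over the 59 condition means, the 8 genes shared only a part of their pattern. The values of rho are a description across conditions that share the normalization, with DMSO as 1 of the 59. Spearman's rho was highest between *Ier2* and *Myc* (0.60), *Egr2* and *Myc* (0.57), *Nr4a1* and *Myc* (0.55) and *Egr1* and *Ier2* (0.55), and lowest between *Egr3* and *Ier3* (−0.14). *Egr1* and *Egr2* were at 0.24 and *Egr1* and *Egr3* at 0.51. Between samples within conditions, the deviations from the condition mean went together most for *Nr4a1* and *Myc* (0.75) and for *Egr1* and *Egr3* (0.68).

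The genes whose condition means were most like those of a member, over the same 59 means, were chosen as the 3 with the highest rho. For *Egr2* they were *Ccr2* (rho 0.84), *Gpr183* (0.84) and *Hmmr* (0.84), and for *Egr3* *Bhlhe40* (0.67), *Rabgef1* (0.65) and *Irf4* (0.64). For *Egr1* they were *Il17ra* (0.72), *Mfsd12* (0.70) and *Zfp703* (0.70). *Ier2* was most like *Ctu1* (0.71), *Fam214b* (0.69) and *Zfp715* (0.66), *Ier3* like *Tubb4b* (0.75), its pseudogene *Tubb4b-ps1* (0.72) and *Fen1* (0.69), and *Ier5* like *AI467606* (0.75), *Zfp955a* (0.75) and *Chd2* (0.74). For *Nr4a1* they were *Zfp263* (0.70), *Nr1d1* (0.66) and *Zfp655* (0.65), and for *Myc* *Zfp715* (0.70), *Zfp948* (0.69) and *Adora2b* (0.69). *Zfp715* was the only gene named for more than 1 member.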

How the data were processed

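The authors aligned polyA RNA-seq reads (SMART-seq2 libraries) to mm10 with TopHat2 2.1.1, removed blacklisted regions with bedtools 2.29.2, counted reads per gene on exons with R packages, normalized the samples to invariant genes and deposited the values rounded to whole numbers. The deposited values were handled as a score, named normalized value here, so no count test was run (the authors used DESeq2). All 180 columns were matched to samples by name and 0 were left over. Strand-specific counting is not stated; *Egr2* overlaps *Gm32255* (mean 0.689) on the opposite strand.

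Values were compared by limma 3.58.1 in R 4.3.3 with a mean-variance trend, on log2(normalized value + 1), in 1 fit of all 59 conditions, over the 12714 genes with a mean of at least 10. P-values were adjusted by Benjamini-Hochberg over these genes for each comparison, with a threshold of 0.05. The script was tested on simulated data. The p-values measure the spread between samples, which the methods call biological replicates. For classes and other groups of CKIs they do not take in the spread between CKIs. Designated targets of CKIs are those of the study. The genes and lists were chosen with earlier results of these data known. The genes named are the 8, the called pairs, the 8 genes with the MEK, ERK, RAF, JNK and p38 inhibitors, up to 4 called genes with the largest change per list, and 3 genes per member by rho. A few values with other CKIs were chosen after they were seen.

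Same-numbered samples were taken as pairs for the 34 CKIs whose deviations from the group means correlated above 0.1 with those of the DMSO samples for all 3 numbers (for the DMSO sets among themselves 0.237 to 0.514). The main fit held no term for replicate number, so its calls and class results are unpaired for these CKIs too. Pairing entered only through the replicate block, given as an alternative. For the other 24 CKIs the numbers were not taken as pairs. Alternatives were other pseudocounts, filters and scaling, single DMSO sets, the replicate block, a fit of only the groups compared, and leaving out samples. A covariate for mitochondrial transcripts and the set without Pimasertib were added after seeing the data. Tools were Python 3.11.15 with pandas 2.3.3, NumPy 2.4.6 and matplotlib 3.10.9. Depth in reads per gene was not taken from the rounded values.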

Additional observations from a re-analysis of the deposited data

How the results depend on the processing

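Of the 31 calls, 9 were kept under every alternative run for them, 22 were lost under at least 1, and 0 reversed. The 9 were *Ier5* with AZD2014, BGT226, Filgotinib, Omipalisib and PF04691502, *Nr4a1* with Midostaurin and PF04691502, *Myc* with Midostaurin and *Egr1* with Pimasertib. The number of calls was 17 with no filter, 20 with a filter at a mean of 50 (which left 6 of the genes to test), 16 against DMSO set 1 alone, 15 against set 2 alone, 18 when only the groups compared were fitted and 17 with a log2 fold change of at least 1. It was 10 to 23 without 1 replicate of every condition, 18 to 37 without 1 DMSO sample (18 without the second of set 2) and 18 to 26 without 1 replicate of every CKI.

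With the replicate number as a block, 45 pairs were called, and all 31 were among them. For the 34 CKIs taken as paired, the block moved the calls from 12 to 17. For the other 24, the correlations with the DMSO samples were not above 0.1 for all 3 numbers, so their numbers were not taken as pairs. The shifts of *Egr1* and *Egr3* with replicate number were measured over all 60 sets, with these 24 CKIs included. The block left 4 genes different between the MEK and ERK inhibitors and the other CKIs, gave 1 for the MEK and ERK inhibitors against DMSO (*Egr1*, adjusted p = 0.0124, in place of 0) and 13 class results in place of 8. With the mitochondrial covariate and the block 28 pairs were called, 20 of them shared. After scaling by the median of ratios, which moved the median of all genes by −0.20 (BGT226) to 0.04, 24 pairs were called, 19 higher and 5 lower.

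Leaving out 1 replicate or sample gave 0 to 1 genes for the MEK and ERK inhibitors against DMSO, 2 to 4 against the other CKIs, 1 to 12 class results and 5 to 8 genes varying over all conditions. Without Pimasertib 2 genes differed from the other CKIs. The class results numbered 4 with no filter and 1 against either DMSO set alone. The cause of these changes was not tested. The 3 samples per CKI limit the detectable change, most of all for *Egr1*, whose standard error was 0.51 in the fit without the replicate block. Replicate number accounted for 50.03% of the variance of *Egr1* within sets.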

Other observations

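With Mubritinib, the one CKI that raised *Egr1*, 4 of the 26 other immediate-early genes tested rose and 1 fell. *Fosb* (log2 fold change 1.70, limma adjusted p = 0.0179) and *Fos* (1.03, adjusted p = 6.22e-07), the DNA-binding partners of JUN, were higher, as was the kinase gene *Sgk1* (0.75, adjusted p = 1.33e-05), and *Rhob* (−0.61, adjusted p = 0.0386), a small GTPase gene, was lower. Of all genes 1.84% passed the threshold with this CKI.

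*Myc* lay wholly above the DMSO samples with 13 of the 58 CKIs. Among them were the JAK inhibitors Ruxolitinib, at 639, 492 and 542, and Momelotinib, at 478, 534 and 603. The ERBB inhibitors Poziotinib (475 to 704) and AC480 (498 to 699) were also among them. Of all genes tested, 1.07% lay wholly above with Ruxolitinib, 3.71% with Momelotinib, 1.23% with Poziotinib and 3.73% with AC480. With Poziotinib and with AC480 0 of the 12714 genes tested passed, so *Myc* did not pass with either. The log2 fold changes of *Myc*, 0.73 with Ruxolitinib and 0.68 with Momelotinib, did not pass (limma adjusted p = 0.956 and 0.168). These pairs were chosen after their values were seen.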
